A study of Mus musculus with 2 samples.

Results

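The 7 genes described here encode the somatic cohesin ring and the factors that position it: the stromal antigen genes Stag1 and Stag2, the kleisin gene Rad21, the SMC genes Smc1a and Smc3, the zinc finger gene Ctcf and its germline paralogue Ctcfl. They were taken by name from the 21887 protein-coding genes of the RefSeq table on GRCm38, and all 7 were found in it. Accessible sites were peaks that lay in the gene model or within 50 kb of it and overlapped a peak of the other library by at least 1 bp. The 7 loci held 79 such shared regions of the 83732 in all.

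In cohesin, SMC1A and SMC3 join at a hinge and are closed into a ring by a kleisin, RAD21 in somatic cells, to which STAG1 or STAG2 binds. The ring extrudes chromatin loops and holds sister chromatids together, and CTCF bound to DNA halts it at loop anchors. In meiotic cells STAG3, REC8, RAD21L and SMC1B take the place of somatic subunits, and CTCFL, also called BORIS, is best known from the testis, where it shares many CTCF sites.

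The cells, labelled GSC, were from the mouse, had the genotype Stag3 KO and belonged to the line AAG, whose EGFP reporters are named for Acrosin and beta-Actin. ATAC-seq, in which the Tn5 transposase cuts open chromatin, was run on 50000 sorted, viable, AAG-positive cells per library. There was 1 group of 2 libraries (replicates 1 and 2), and wild-type libraries were not analysed here, so every value is a level in Stag3 KO cells and none is an effect of the knockout. Separate cultures or clones are not named in the labels, so differences between replicates may be technical only.

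The peak lists held 107331 peaks in replicate 1 and 98986 in replicate 2. Fold enrichment is the authors' value at the summit of a peak relative to its local background, and tags are the reads stacked at that summit, recovered from fold and p-value; the median summit held 40 and 41 tags. At Stag3 itself, shared regions of 6.27-fold and 6.72-fold lay at the lower-coordinate end and of 19.9-fold and 18.8-fold inside the model. The end region held 19 and 20 tags and was below the median fold of both libraries, and the one inside held 417 and 422. Within 1000 bp of the Stag3 start site in the RefSeq promoter table there was a region above that median. It may be the region inside the model rather than a further one. The labels do not say which part was removed, so these regions do not check the knockout. A shared region within 1000 bp of a gene end was found at 15 of 15 marker genes of germ cells, 9 of 15 of testis somatic and feeder cells, and 2 of 8 of blood and endothelial cells, beside 65.8% of all protein-coding genes. With a fold above the median of both libraries it was found at 9 of 15, 8 of 15 and 2 of 8, beside 51.8% of all, so on that count the germ cell and the somatic and feeder lists were nearly alike.

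The promoter table gave start sites for 4 of the 7 genes, and these lay in shared regions. The bases before 3 of them are shown because peaks of both libraries covered all 250 positions upstream of the start site in every case. The sequences are from RefSeq on GRCm38.p6, plus strand, 5′ to 3′, and capitals mark matches to any of 12 short motifs on either strand.
Stag1 (chr9:100643198-100643447): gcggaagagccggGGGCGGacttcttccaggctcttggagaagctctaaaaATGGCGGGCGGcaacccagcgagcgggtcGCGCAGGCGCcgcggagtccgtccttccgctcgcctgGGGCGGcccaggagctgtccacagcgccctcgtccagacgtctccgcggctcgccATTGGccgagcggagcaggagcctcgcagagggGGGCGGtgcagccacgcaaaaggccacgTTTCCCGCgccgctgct
Smc3 (chr19:53600146-53600395): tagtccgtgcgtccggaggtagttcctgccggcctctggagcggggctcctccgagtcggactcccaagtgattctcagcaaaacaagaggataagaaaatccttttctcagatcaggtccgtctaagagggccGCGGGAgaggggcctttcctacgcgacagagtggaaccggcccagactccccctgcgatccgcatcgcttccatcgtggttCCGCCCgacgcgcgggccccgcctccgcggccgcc
Ctcf (chr8:105636288-105636473): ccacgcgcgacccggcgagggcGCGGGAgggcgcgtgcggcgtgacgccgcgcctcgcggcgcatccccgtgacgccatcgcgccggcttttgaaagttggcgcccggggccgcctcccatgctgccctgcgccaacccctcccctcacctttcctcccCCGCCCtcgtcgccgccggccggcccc
The Ctcf stretch stops at the lower end of its gene model, 65 bases before the start site. The Stag1 stretch lies inside the longer Stag1 model. That of Smc1a lies inside the neighbouring gene Ribc1 and is given by its values only.

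All 4 upstream stretches were above the median GC content of promoter entries. Smc1a was nearest to it, at percentile 63.6, and Stag1, Smc3 and Ctcf stood at percentiles 92.2, 81.6 and 97.6. GC content was 71.2% at Stag1, 56.8% at Smc1a, 64.4% at Smc3 and 77.6% at Ctcf over the 250 bases, beside a median of 52.4% in 32841 promoter entries. They held 31, 16, 26 and 40 CpG dinucleotides in that order, beside a median of 6. The GC box (GGGCGG) matched in all 4, with 4 matches at Stag1 and 1 at each of the others, and it occurs in 32.7% of all promoter entries.

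Other matches differed among the 4. Stag1 alone held an NRF1 motif (3.74% of entries), a YY1 motif (ATGGCGG, 2.21%) and an E2F motif (TTTCCCGC, 0.895%), the last beginning 17 bases before the start site. The E2F6 motif (TCCCGC, 16.9%) matched at Stag1, inside that E2F match, and at Smc3 and Ctcf. The CCAAT box (CCAAT, 33.9%) matched at Stag1 and Smc1a. No match was found for the CTCF core motif, which 2.07% of entries hold, or for the ETS motif (CCGGAAG), which 6.91% hold. The same was true of the CRE motif (TGACGTCA, 1.55%) and the second E2F form (TTTGGCGC, 0.417%). Neither the TATA box (TATAAA), found in 12.4% of entries, nor the E box (CACGTG), found in 6.02%, matched. Some matches overlap: at Stag1 a GC box shares bases with the YY1 match. A match describes letters only, and no match says only that these letters are not in this window.

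The 79 shared regions were spread unevenly over the 7 loci. Ctcf had 23, Stag1 14, Smc3 13, Rad21 10, Ctcfl 9, Stag2 6 and Smc1a 4. Per 100 kb of gene model and flanks, the density was 15.7 at Ctcf, 8.94 at Smc3, 7.64 at Rad21, 7.15 at Ctcfl, 3.04 at Stag1, 2.75 at Smc1a and 2.63 at Stag2, and the median over all protein-coding genes was 5.35. Ctcf thus stood at percentile 97.7 of all genes and the 2 X-linked members, Smc1a and Stag2, at percentiles 26.6 and 25.6. The autosomal Stag1 was close to these, at percentile 29.9.

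**Figure D1:**
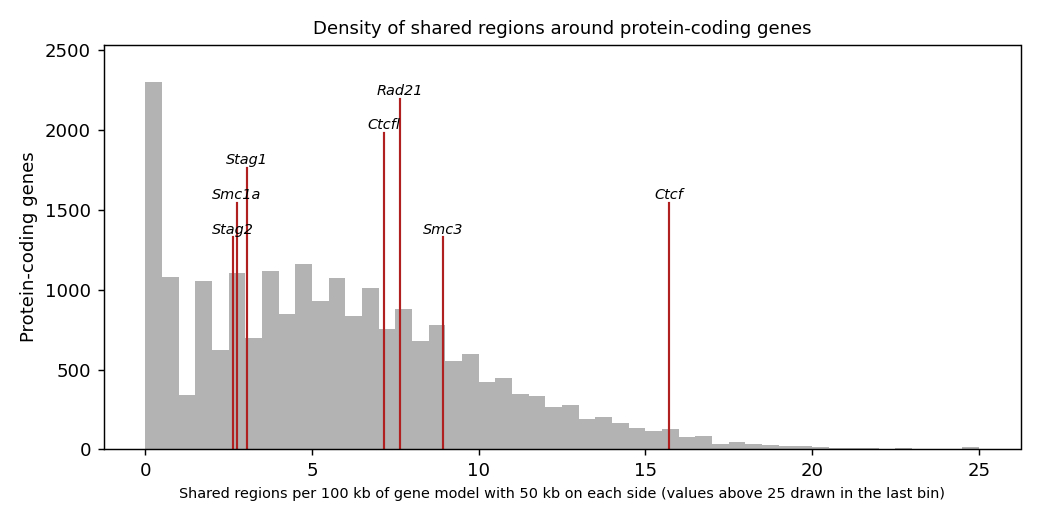
Number of protein-coding genes (vertical axis) by shared regions per 100 kb of gene model with 50 kb on each side (horizontal axis), with the 7 genes as red lines of arbitrary height. Stag2, Smc1a and Stag1 lie between 2.63 and 3.04 regions per 100 kb, Ctcf at 15.7.

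Most of these regions lay outside the genes. Of 79, 8 reached within 1000 bp of the member's own gene end, 15 had their summit further inside the model, and 56 lay in the flanks. In the flanks, 16 reached the end of another protein-coding gene and 40 did not. A region at their own gene end was present at 6 of the 7 members (background 65.8%), and at 3, Smc1a, Smc3 and Ctcf, its fold was above the median of both libraries (background 51.8%). A Rad21 region ended just outside this window and is not counted. The same holds for a Stag1 region, whose fold was above the median of both libraries. Of the 8 gene-end regions, 7 lay at the lower-coordinate end. For the 4 genes with a table start site, 4 of 4 had a region within 1000 bp of it (background 65.9%), and in all 4 its fold was above the median of both libraries (background 52.7%).

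**Figure D2:**
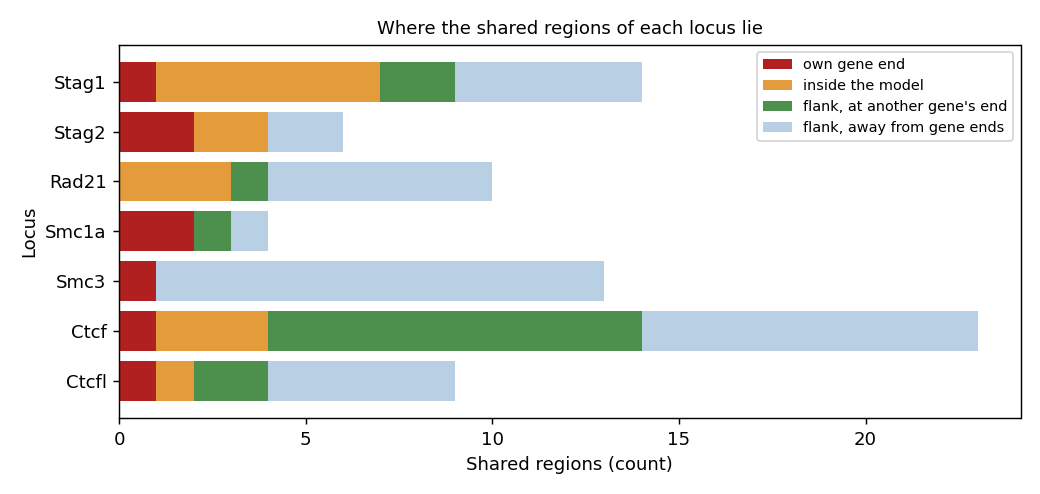
Number of shared regions (horizontal axis) at each locus, by place: within 1000 bp of the member's own gene end, inside the model, in a flank at the end of another protein-coding gene, or in a flank away from protein-coding gene ends. Smc1a and Smc3 have none inside the model, and 10 of the 19 flank regions of Ctcf lie at ends of other genes.

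Internal sites were present at 5 of 7 members (background 42.1%). This share depends on gene length: it was 95.3% among protein-coding genes of 100 kb or longer, the class of Stag1 and Stag2, and 58.1% among those of 25 to 50 kb, the class of the other 5. Stag1 had 6 internal regions, Rad21 and Ctcf 3 each, Stag2 2 and Ctcfl 1, while Smc1a and Smc3 had 0. Of the 15, 2 lay at the Stag1 table start site.

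Stag1, one of the alternative stromal antigen genes, lies on chromosome 9 at 100597709 to 100958544, a model of 361 kb. The region at the lower end of that model was modest, with 51 tags in replicate 1 and 31 in replicate 2, whereas the table start site lay 45.7 kb inside. There a region at 100642598 to 100643700 held 247 and 238 tags, and its fold was 18.0 in replicate 1 and 18.5 in replicate 2 (mean 18.3 ± 0.336, SD, n = 2). Its summits lay at -134 and -126 bp relative to the start site. By tags it stood at percentile 93.2 of all shared regions.

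The internal site of highest fold in Stag1 was elsewhere, although it held fewer tags than the start-site region. At 100788097 to 100788479, 191 kb from the lower end, fold was 27.8 in replicate 1 and 24.5 in replicate 2 (mean 26.2 ± 2.35, SD, n = 2), on 137 and 96 tags. It stood at percentile 93.1 of all shared regions by fold and touched no end of another protein-coding gene. A site at 221 kb was less even, with 20 tags in replicate 1 and 42 in replicate 2. From there to the higher end, 140 kb, or 38.8% of the model, held no shared region and 1 peak of a lone library.

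Strong sites also stood next to Stag1 on both sides. A region 1.199 kb below the model had folds of 21.9 and 19.7, and one 44.5 kb above it, inside Pccb, a subunit gene of propionyl-CoA carboxylase, had 27.3 and 27.6 on 210 and 210 tags. The latter was the strongest flank region of Stag1.

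Stag2, on chromosome X at 42149297 to 42277186, had its sites packed at one end. Of its 6 regions, 4 lay between 0.142 kb below and 2.91 kb above the lower-coordinate end. The first, at 42148732 to 42149372, held 97 tags in replicate 1 and 103 in replicate 2, with folds of 8.75 and 7.93 (mean 8.34 ± 0.582, SD, n = 2). The next 3 held 36 and 48, 61 and 69, and 65 and 114 tags. By tags the first region stood at percentile 73.8 of all shared regions and by fold at percentile 35.9. The local background there was 10.2 and 12.1 tags, where the lowest in the libraries was 2.19 and 2.13.

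Beyond that cluster, 125 kb of Stag2, 97.6% of the model, held no shared region. There were 2 peaks of a lone library in it, 1 from each. The remaining regions were in the flanks, 42.6 kb below the model inside Xiap, an inhibitor of caspases, and 1.65 kb above it. Both were weaker in replicate 2, with 38 and 15 tags and with 36 and 14 tags. No region of the Stag2 locus exceeded the median fold of both libraries, whereas 51.4% of all shared regions and 37 of the 79 at the 7 loci did.

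Rad21, which encodes the kleisin of mitotic cohesin, lies on chromosome 15 at 51962604 to 51993538. It was the only member with no region within 1000 bp of a gene end. Instead 3 internal regions stood side by side, with summits 2.48, 1.62 and 1.13 kb from the higher-coordinate end. The last of these ended at 51992535, a few bp short of the 1000 bp window. The middle one, at 51991591 to 51992105, held 226 and 231 tags, with folds of 19.98 and 19.6 (mean 19.8 ± 0.274, SD, n = 2). Its neighbours held 37 and 48 tags and 79 and 69 tags, against a local background of 10.2 to 11.0 tags. The summits of all 3 also lay inside Gm52217, a model on 51990975 to 51996565 that overlaps Rad21. The first and the middle region reached within 1000 bp of the lower-coordinate end of Gm52217. Reads there cannot be assigned to one of these genes. With an end window of 2500 bp, all 7 members had a gene-end region.

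The remaining 28.4 kb of Rad21, 91.7% of the model, held no peak of either library. Outside the model were 7 regions, 1 of them at the end of Aard. The flank site of highest fold, 21.1 kb below the model, had folds of 11.3 and 14.7 on 35 and 45 tags. By tags the Aard site was higher, with 106 and 104. All 10 peaks of each library at this locus were shared, so Rad21 was also the member with no peak found in only 1 library.

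**Figure D3:**
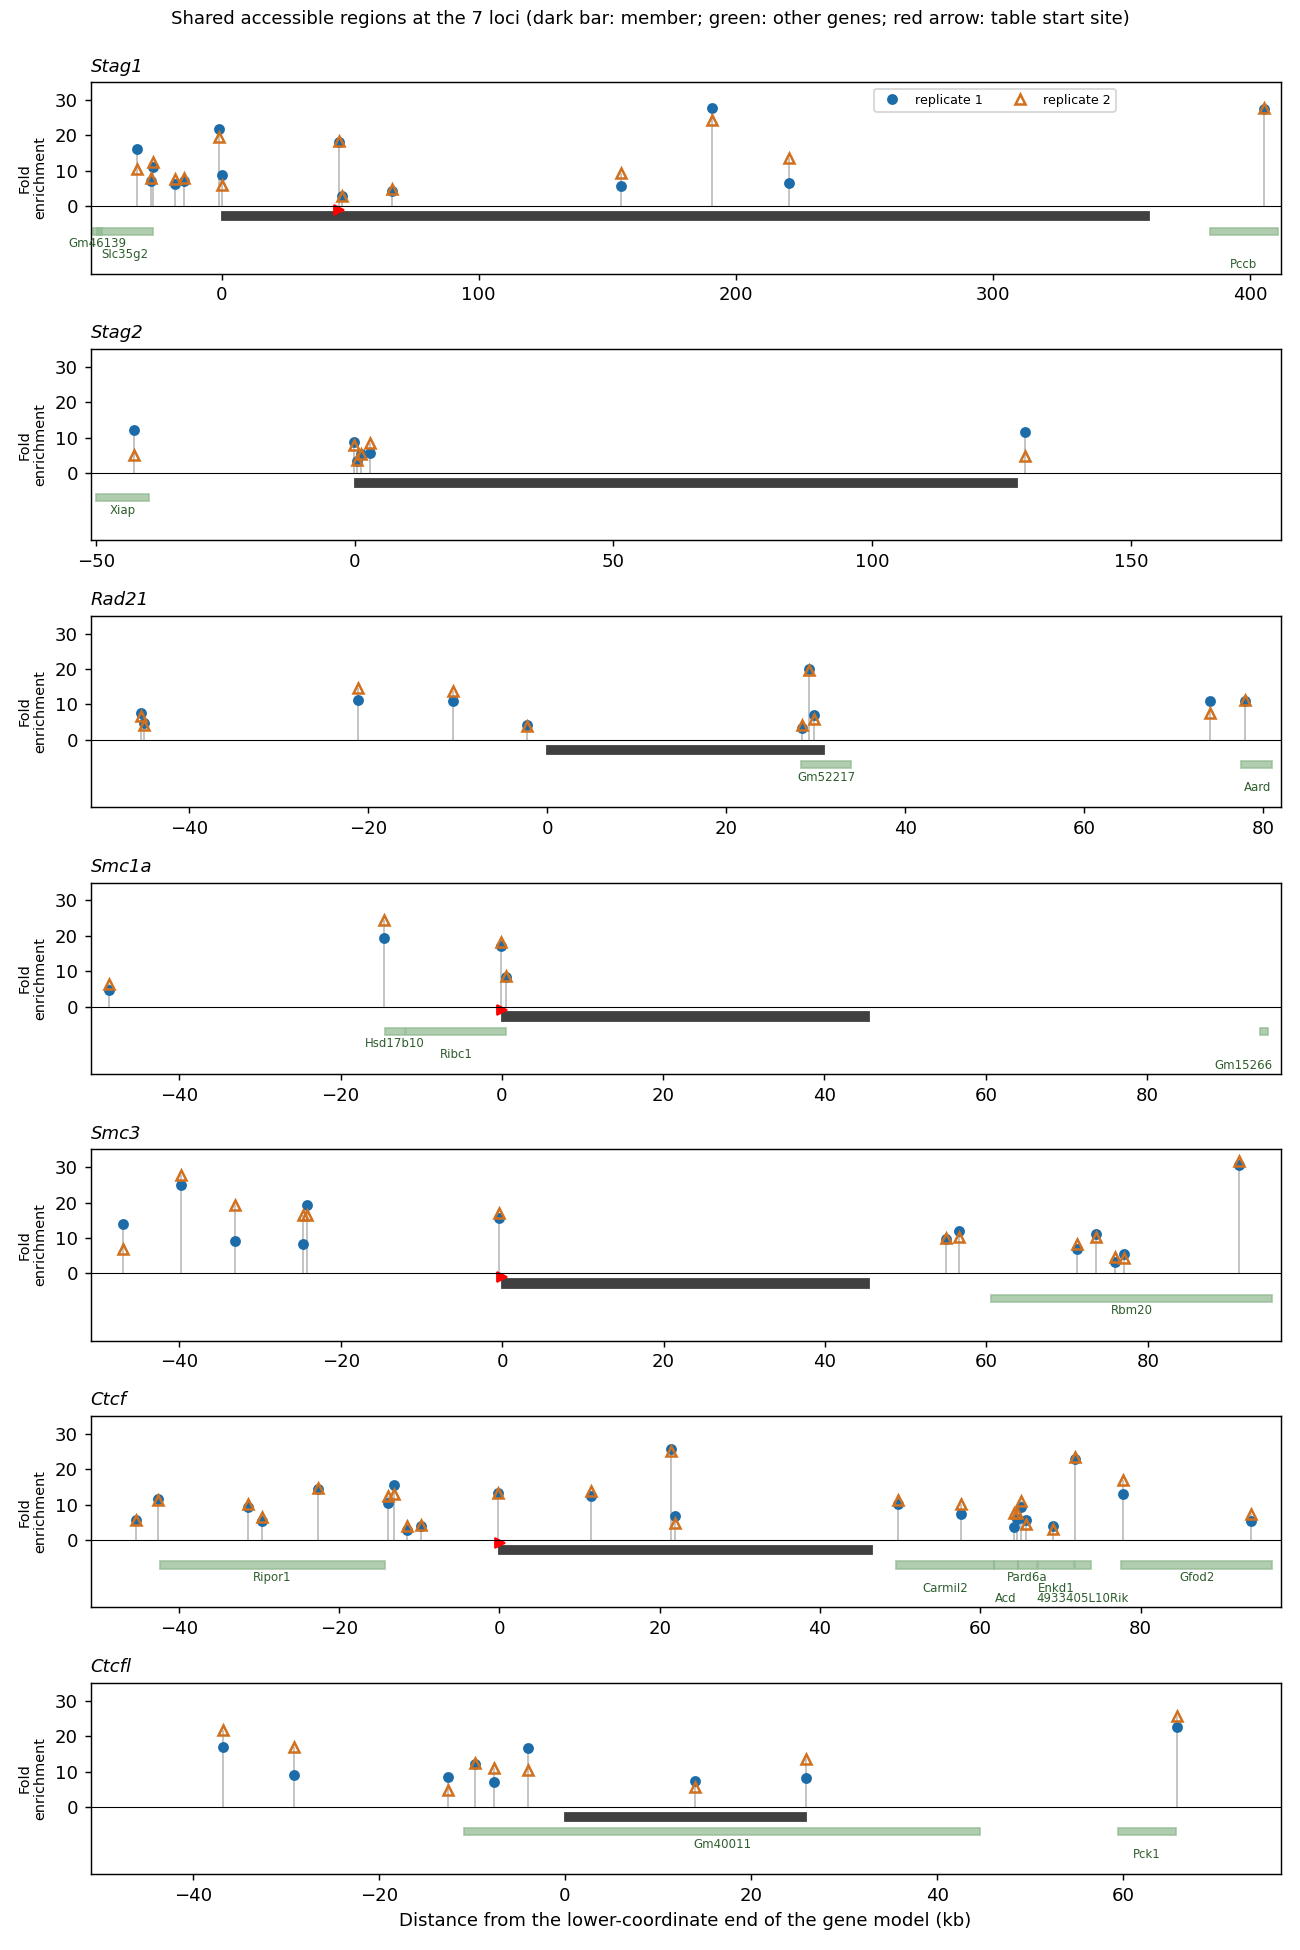
Shared regions at each locus by distance from the lower-coordinate end of the gene model in kb (horizontal axis) and fold enrichment (vertical axis), with replicate 1 as filled circles and replicate 2 as open triangles. Dark bars are the members, green bars other protein-coding genes, and red arrows the start sites of the promoter table; Smc1a and Smc3 carry no region inside the model beyond 1000 bp from the start, and Stag1 has its start-site region 45.6 kb inside the model.

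The genes of both SMC subunits had a strong site at the start and no shared region inside the model beyond the end window of 1000 bp. Smc1a lies on chromosome X at 152016428 to 152061973. Its start-site region at 152015925 to 152016614 held 175 tags in replicate 1 and 239 in replicate 2, with folds of 17.3 and 18.3 (mean 17.8 ± 0.773, SD, n = 2). The summits lay at -56 and -63 bp relative to the start site. The region also covered the table start site of Ribc1, whose model overlaps the start of Smc1a, and reads cannot be assigned to one of the 2 genes.

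A second Smc1a region, with summits 522 and 548 bp after the start site, held 84 and 113 tags. The next 44.8 kb, 98.4% of the model, held no peak of either library. No shared region was found in the 50 kb above the model either. Below it, the strongest flank site, 14.6 kb away at the end of Hsd17b10, had folds of 19.5 and 24.6 on 127 and 176 tags.

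Smc3, on chromosome 19 at 53600396 to 53645831, had 1 start-site region, at 53599804 to 53600623. It held 158 and 166 tags, with folds of 15.5 and 17.1 (mean 16.3 ± 1.12, SD, n = 2). Its summits, at -345 and -342 bp, lay farther from the start site than those of Smc1a. The rest of the model, 45.2 kb or 99.5% of it, held no shared region. Peaks of a lone library there numbered 2, at 0.481 kb from the lower end with 3.79-fold in replicate 1 and at 8.63 kb with 4.80-fold in replicate 2.

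Unlike Smc1a, Smc3 had strong sites in both flanks. None of its 12 flank regions reached the end of another protein-coding gene. The strongest region of all 7 loci by mean fold was 45.9 kb above the model, inside Rbm20, a splicing regulator gene of heart muscle, with folds of 30.5 and 31.8 on 226 and 217 tags. It stood at percentile 98.2 of all shared regions. Below the model, a site 39.8 kb away had folds of 25.1 and 27.8 on 238 and 286 tags. At 24.1 kb below, a pair of replicate 1 peaks shared 1 replicate 2 peak of 201 tags, and these counted as 2 regions.

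Ctcf, on chromosome 8 at 105636474 to 105682922, had the most regions, but its start-site region was of middle rank by fold. At 105635876 to 105636885 it held 156 tags in replicate 1 and 141 in replicate 2. The folds were nearly equal, 13.35 and 13.40 (mean 13.4 ± 0.0324, SD, n = 2), and stood at percentile 62.1 of all shared regions, whereas its tags stood at percentile 84.1. The summits lay at -226 and -279 bp relative to the start site.

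A site inside Ctcf was stronger than its start. At 105657661 to 105658051, 21.4 kb from the lower end, 292 and 293 tags gave folds of 25.6 and 25.1 (mean 25.3 ± 0.372, SD, n = 2), with summits at the same base in both libraries. By tags it stood at percentile 95.7 of all shared regions. A region 11.4 kb inside held 42 and 50 tags, with folds of 12.4 and 13.9, and one beside the strong site held 76 and 54 tags. The remaining 24.4 kb up to the higher end held no peak of either library.

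Most regions around Ctcf stood at or in its neighbours. There were 7 other protein-coding genes in its window, and 16 of the 19 flank regions lay inside or at the end of one of them. The strongest of these, at the adjoining ends of Enkd1 and 4933405L10Rik, had folds of 22.99 and 23.5 on 365 and 396 tags, more tags than at any other of the 79 regions. At the adjoining ends of Acd, a telomere protein gene, and Pard6a, a polarity gene, 4 regions stood side by side with 47 to 127 tags in replicate 1. Of these, 2 overlapped each other, since their replicate 1 peaks shared 1 replicate 2 peak of 131 tags.

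Ctcfl, on chromosome 2 at 173093609 to 173119525, had 1 region at its higher-coordinate end and 1 inside. The end region, at 173119066 to 173119989, held 28 tags in replicate 1 and 87 in replicate 2, with folds of 8.06 and 13.6 (mean 10.8 ± 3.91, SD, n = 2). After scaling for the summed tags of all shared regions, replicate 2 was 2.96 times replicate 1 (95% exact binomial interval 1.91 to 4.71, for counting error only). The internal region, 13.9 kb from the lower end, was weak in both, with 22 and 17 tags. Both lie inside the larger model Gm40011, which spans Ctcfl.

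Below the Ctcfl model lay 6 regions, the farthest of which was the strongest of them, with folds of 16.8 and 21.8 on 93 and 170 tags. The flank site of highest fold was above the model at the end of Pck1, the gluconeogenic enzyme gene, with folds of 22.6 and 25.7 on 103 and 139 tags. By mean tags the farthest lower site stood above it, at percentile 81.3 against 79.1 of all shared regions. Replicate 2 alone had 3 more peaks at this locus and replicate 1 had 0.

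Ranked by the fold of 1 leading region each, Rad21 came first, followed by Stag1, Smc1a, Smc3, Ctcf, Ctcfl and Stag2. This region was the strongest one at the table start site, else at a gene end, else, for Rad21, inside, a choice made after the values were seen. It sets the first place of Rad21, since internal regions of Stag1 (27.8 and 24.5) and Ctcf (25.6 and 25.1) had higher folds than that of Rad21. The ranges of both libraries overlapped between Stag1 and Smc1a, between Ctcf and Ctcfl, and between Ctcfl and Stag2. These neighbours in the order did not differ beyond their spread. With 2 libraries, ranges that did not overlap do not establish a difference either. By tags the order was Stag1, Rad21, Smc1a, Smc3, Ctcf, Stag2 and Ctcfl. The range of Smc1a (175 and 239) overlapped those of Rad21 (226 and 231) and Stag1 (247 and 238). Stag2 and Ctcfl were the lowest on both scales.

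**Figure D4:**
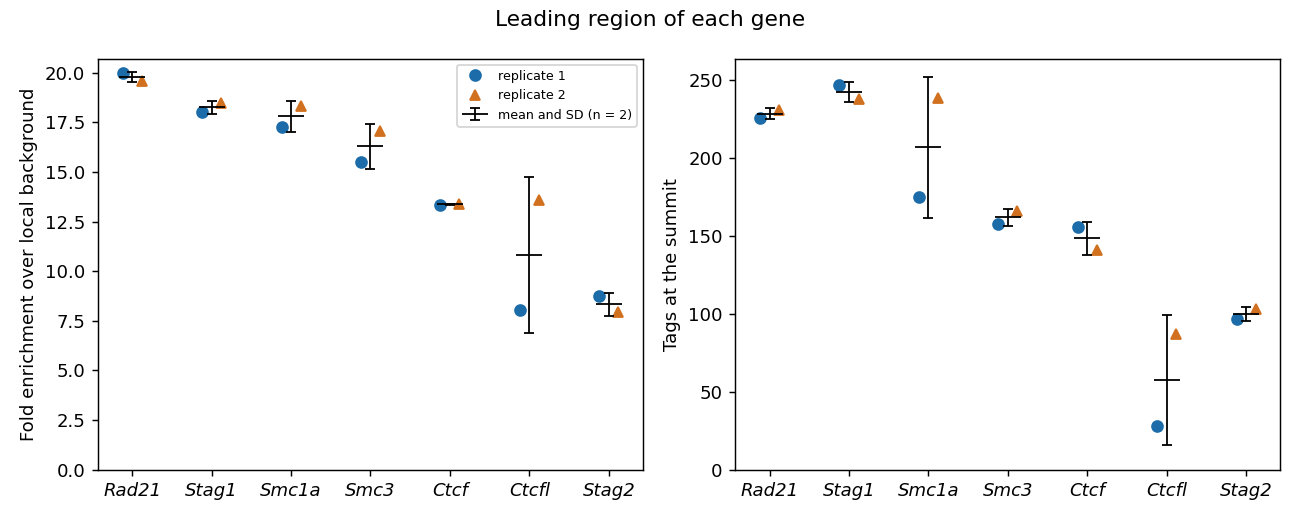
Fold enrichment (left) and summit tags (right) of the leading region of each gene, with replicate 1 as circles, replicate 2 as triangles and bars for the mean and SD (n = 2). Rad21 to Smc3 lie between 15.5-fold and 19.98-fold. Ctcfl shows the widest gap between libraries in fold, 8.06 and 13.6, and Smc1a the widest in tags, 175 and 239.

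Agreement between the libraries was also examined region by region. Tags differed 1.5 times or more at 17 of the 79 regions (background 25.4%), 11 of the 79 being higher in replicate 2 (background 8.97%) and 6 of the 79 higher in replicate 1 (background 16.5%). Of the 17, 4 each were at Stag1 and Ctcfl, 3 each at Stag2 and Smc3, 2 at Ctcf, 1 at Rad21 and 0 at Smc1a. At 2 of them, at Smc3 and Ctcf, the summits lay 504 and 499 bp apart, so the tags came from different positions. Both Ctcf regions, at Acd and Pard6a, used the same replicate 2 peak, which is thus counted 2 times.

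The direction was not the same at every locus. At Ctcfl 6 of 9 regions were higher in replicate 2, with a median ratio of 1.48, and at Smc1a 4 of 4, with ratios of 1.28 to 1.32. The counts were 4 of 6 at Stag2, 14 of 23 at Ctcf, 7 of 13 at Smc3, 7 of 14 at Stag1 and 4 of 10 at Rad21. Over all shared regions, 46.0% on X and 46.6% on the autosomes were higher in replicate 2. Of the 4 Smc1a intervals, those of the start-site region (1.07 to 1.59) and the Hsd17b10 region (1.045 to 1.67) excluded equality. Those of the second start region (0.958 to 1.72) and the farthest region (0.615 to 2.79) included it. The median ratio was 0.958 over 2165 shared regions of X and 0.971 over the autosomes. At the leading regions of Stag1, Rad21, Smc3, Ctcf and Stag2 the ratios were 0.918, 0.974, 1.00, 0.861 and 1.01, and each interval included equality.

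**Figure D5:**
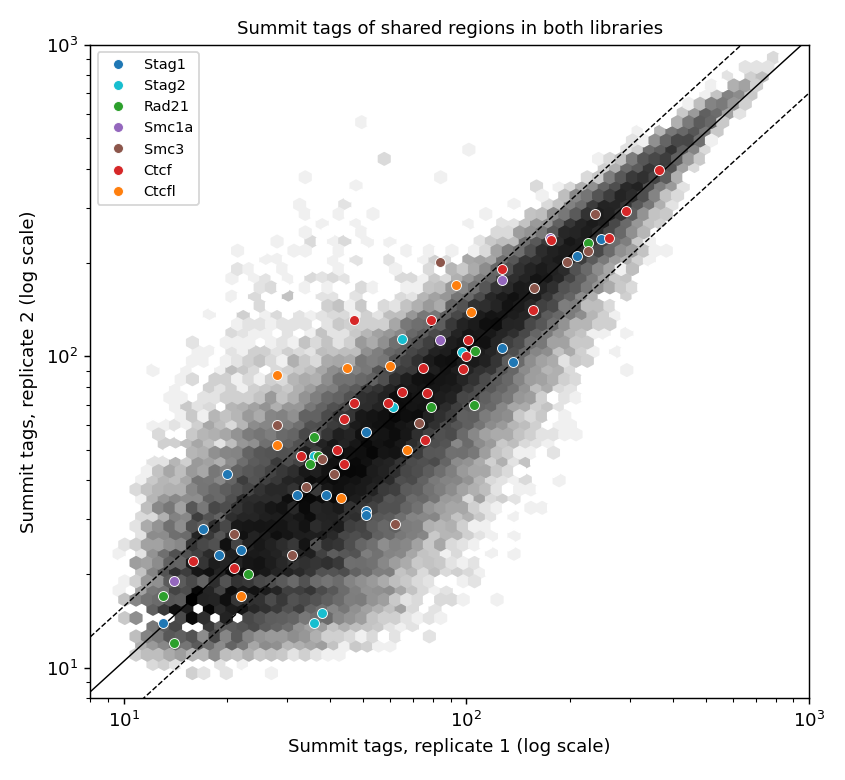
Summit tags of replicate 2 (vertical, log scale) against replicate 1 (horizontal, log scale) for all 83732 shared regions in grey and the 79 regions of the 7 loci in colour; the solid line marks equal tags after scaling and the dashed lines a ratio of 1.5. Of the 79 points, 17 lie outside the dashed lines, among them the Ctcfl end region at 28 and 87 tags.

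Peaks found in 1 library only were weak at these loci. The share of peaks that were shared was 84.9% in replicate 1 and 84.0% in replicate 2, beside 78.0% and 84.9% over all peaks. The others numbered 14 in replicate 1 and 15 in replicate 2, and 16 of the 29 lay inside a member, 9 of those in Stag1. Their folds ran from 3.10 to 9.28 with a median of 5.12, and they held 12 to 45 tags. The shared regions had median folds of 9.09 and 10.3, beside 10.9 and 10.6 for all shared regions.

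Of 25 other genes listed with the cohesin pathway, 22 had a gene-end region (background 65.8%). A region at the table start site was found at 19 of the 21 that have one (background 65.9%). The list was broad. It also held the SMC genes of other complexes, Smc2, Smc4, Smc5 and Smc6, and the transcription factor genes Yy1, Zfp143 and Maz, each with a gene-end region. Hdac8, the deacetylase of SMC3, Sgo1, a protector of centromeric cohesin, and Pttg1, the securin gene, had none at a gene end, but Sgo1 and Pttg1 had one at the table start site. Hdac8 and Rad21l, a meiotic kleisin gene, had none at the table start site. Internal regions were found at 10 of the 25 (background 42.1%), most at Nipbl, the loader gene, with 12. The density of shared regions had a median of 5.44 per 100 kb over these 25 genes and of 7.15 over the 7 members.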

How the data were processed

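ATAC-seq peak lists of 2 libraries, 1 per sample and all in 1 group, were used; groups and replicate numbers came from the sample titles. Per the submitters' processing notes, the tools included MACS2 (2.1.1), Bowtie2 (2.3.4.1), deepTools (3.5.0), Picard (2.18.23), bedtools (2.29.2) and Trim Galore. The builds named there are mm10 and GRCm38.p3. Settings, any Tn5 shift and duplicate removal are not given in the sources used here; they can move summits and decide which weak sites are listed.

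For each peak the authors deposited a fold enrichment (a ratio over the local background), a −log10 p-value and −log10 q-value, a score and the summit position. The deposited score was, for nearly all peaks, the whole part of 10 times −log10 q. Read depth is unknown. Tags were recovered as the whole number that solves fold as tags plus 1 over background plus 1 and p as the Poisson tail, within 1e-05 relative plus 0.0001; this succeeded for 100% of peaks and was tested on simulated data. Ratios of tags were scaled by 1.05, the ratio of summed tags, and their intervals are 95% exact binomial for counting error only.

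Each replicate 1 peak was matched to the overlapping replicate 2 peak with the most common bases. Gene models are those of RefSeq, GRCm38.p6, which shares its chromosome coordinates with mm10. Start sites and strand came from the promoter table, matched for 4 members and 17492 protein-coding genes; for Stag2, Rad21 and Ctcfl both gene ends were used. Motifs were searched on both strands of the 250 bases before a start site, and a palindrome was counted once. A gene end or start site covers 1000 bp on each side, and internal means a summit in the model outside both end windows. Percentiles and shares over all genes or regions are descriptions; with 1 group no test between groups exists. Full values are given, by mean fold, for each member's strongest regions at its start or ends, up to 2 internal regions and the strongest flank region. Alternatives varied the overlap, summit distance, q-value, number of peaks, flanks, end window and libraries. Members and gene lists were chosen with earlier results of these data known. Python 3.11.15, numpy 2.4.6, pandas 2.3.3, scipy 1.17.1 and matplotlib 3.10.9 were used.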

Additional observations from a re-analysis of the deposited data

How the results depend on the processing

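Of 39 recomputed main counts, 34 stayed within 1.5 times the value reported. The number of shared regions at the 7 loci was 79; it was 33 when each library was cut to its 50000 strongest peaks by fold, 32 with flanks of 10 kb and 23 in the gene bodies alone, each of which takes in fewer peaks or less sequence. It was 93 to 94 with either library alone. With the 50000 strongest peaks, 3 members had a gene-end region and 3 an internal one, and Stag2 kept 0 of its 6 regions; all 4 table start sites stayed occupied under every alternative run. An end window of 2500 bp gave 7 members a gene-end region and 4 an internal one. Of 70 counts per locus, 48 stayed within 1.5 times. At the 4 table start sites, taking the region with its summit nearest to the site gave the same fold and tags. Leaving out 1 of 2 libraries moves a mean by less than 1 SD by construction and shows nothing about stability. No paired analysis was possible because the libraries used here form 1 group. The number of libraries, 2, limits the precision of every SD, and weak sites near the peak threshold rest on few tags.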
